A study of Vitis vinifera with 2 samples.

Results

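Close pairs of MYB24 binding events on naked grapevine DNA were the subject here, in the 1 library made with HALO-tagged VvMYB24. The pairs were chosen by position alone, from the event list called on primary contigs. A member was an event with another event on the same contig at most 1000 bp away, and runs of 5 or more events with neighbours up to 5000 bp apart were left out. This gave 903 members among 6663 events (13.6%), in 413 pairs, 23 triplets and 2 quadruplets on 159 of the 427 contigs with events. The other events were 5620 single events, with no other event within 1000 bp, and 140 events in 18 runs that were left out.

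The assay was DNA affinity purification sequencing (DAP-seq). Genomic DNA from young leaves of 'Cabernet Sauvignon' clone 08 was fragmented and mixed with VvMYB24 (Vitvi14g01750) carrying a HALO tag and made in rabbit reticulocyte lysate, and the bound fragments were sequenced. The control was a library of the same DNA source and lysate made with the HALO tag alone (pIXHALO), so each group had 1 library and no spread between libraries could be given. Both groups used 1 DNA source, and the DNA carried no chromatin.

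MYB24 is an R2R3-MYB transcription factor, a plant family whose MYB repeats contact short DNA elements in the major groove. In Arabidopsis MYB24 acts in stamen development, and the series is about the grapevine protein in terpene and flavonol metabolism. In plants such factors often act with bHLH partners, which were not added in this assay. Closely spaced sites for the same factor are a common feature of plant promoters. Contig names are from version 1.1 of the assembly of this clone. Its haplotigs hold the other haplotype for part of the genome. Which genes, promoters or DNA motifs lie at the pairs was not analysed here.

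Most pairs were short. The spacing between the 2 events of a pair had a median of 193 bp (95% rank interval 170 to 232 bp), with quartiles of 103 and 469 bp. In 165 of the 413 pairs, or 39.95% (95% Wilson interval 35.3 to 44.7%), the events lay over 50 and up to 150 bp apart. In 12 pairs they lay at most 50 bp apart, and in 98 (23.7%) more than 500 bp. At 213 pairs the spacing was 200 bp or less, so the deposited intervals of the 2 events shared bases. Since the limit of 1000 bp was set by the choice of members, the fall in numbers beyond it is no result. Among all neighbouring distances outside the runs left out, 109 fell within 100 bp, 122 between 100 and 200 bp and 38 between 200 and 300 bp. Beyond that the numbers per 100 bp stayed level at first, with 37 between 300 and 400 bp and 41 between 400 and 500 bp. They were lower after that, with 29 between 500 and 600 bp, 19 between 900 and 1000 bp and 15 between 1000 and 1100 bp. The distances therefore formed a peak up to 200 bp on top of a long, low tail, and the 1000-bp limit fell in the tail. Intervals on shares and medians take each event as independent, and they hold counting error within 1 library only. Classes of spacing below start just above their lower bound.

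**Figure D1:**
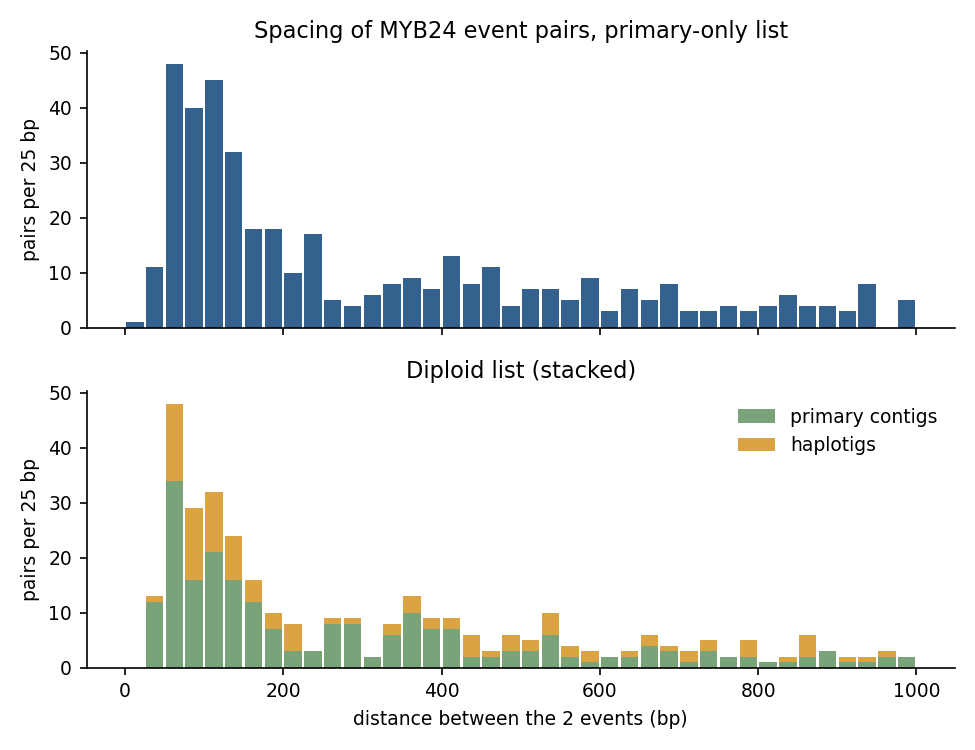
Number of MYB24 pairs (y axis) per 25 bp of spacing between the 2 events (x axis), for the list on primary contigs (top) and for the list with haplotigs (bottom, pairs on primary contigs and on haplotigs stacked). Most pairs lie below 250 bp in both lists, and the median of the top panel is 193 bp.

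The distribution had a similar shape in the list called with haplotigs included (the diploid list), which comes from the same library and is no repeat of it. There, 223 pairs on primary contigs had a median spacing of 177 bp (146 to 256 bp), and 107 pairs on haplotigs had 188 bp (129 to 354 bp). The share from 50 to 150 bp was 39.0% (32.8 to 45.5%) and 43.0% (34.0 to 52.5%).

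One spacing recurred more than any other. Exactly 118 bp separated the events of 10 pairs, on 8 contigs, while the next most frequent spacings, 82, 89 and 103 bp, were held by 5 pairs each. Within 2 bp of 118 bp there were 19 pairs, on 16 contigs. This was the largest number in any window of 5 bp, and the largest apart from windows overlapping it was 17 pairs, at 78 to 82 bp. Of the 284 spacings seen, 205 belonged to 1 pair only. The 10 pairs at 118 bp were of ordinary strength: the deposited signal of an event is called its strength here, and their summed strengths ranged from 51 to 225 with a median of 100. The strongest was on Primary000072F at 2065825 and 2065943, with strengths of 147.9 and 77.1. The weakest was on Primary000363F at 91315 and 91433, with 24.5 and 26.5. On Primary000013F the event at 4345896 had 53.5 and the one at 4346014 had 115.5. The event with the lower coordinate was the stronger in 6 of the 10. Strand and motif at the events were not read, so an orientation of the pairs cannot be given. In the list with haplotigs, 4 pairs on primary contigs had exactly 118 bp and 7 were within 2 bp of it, while another spacing was also held by 4 pairs and the window with most pairs, 11, was centred at 61 bp. Of the 107 pairs on haplotigs 0 were within 2 bp of 118 bp. Both 118 bp and the windows were singled out after the spacings were seen.

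Of the 5 shortest pairs, 4 were 37 bp apart. A spacing of 5 bp was found once, on Primary000061F at 2407844 and 2407849, where the strengths were 51.5 and 50.9. At 37 bp there were 4 pairs, on Primary000003F at 2651709, Primary000018F at 1782340, Primary000021F at 3441037 and Primary000022F at 2531900. Their strengths were 115.7 and 152 on Primary000003F and 73.5 and 81.5 on Primary000018F. On Primary000021F they were 89.9 and 59.1, and on Primary000022F 64.7 and 56.3. In all 4 the stronger event had at most 1.52 times the strength of the weaker. Over all 12 pairs up to 50 bp apart the median was 1.45 times, with quartiles of 1.22 and 1.83. The ratio there reached 3.34, at 45 bp.

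At the limit of 1000 bp, the pairs just inside were on Primary000014F at 2404156 and 2405156 (1000 bp, strengths 29.4 and 141), on Primary000147F at 602619 and 603605 (986 bp, 546 and 56) and on Primary000014F at 2399981 and 2400964 (983 bp, 36.7 and 31.5). A triplet on Primary000328F also had a distance of 994 bp, from 251309 (37) to 252303 (35.7). Just outside were distances of 1011 bp on Primary000055F from 7290 (131 and 33.5), 1016 bp on Primary000247F from 542517 (33 and 34) and 1022 bp on Primary000177F from 758138 (31 and 26). At the other limit, 61 members lay in 20 runs of 4 events linked up to 5000 bp, and 7 of the 18 runs left out had exactly 5 events.

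Members were somewhat stronger than single events. Their median strength was 53.1 (rank interval 51.2 to 56), with quartiles of 39 and 84.9, against 44.3 (44 to 45) and quartiles of 35 and 64 for the single events. A strength over 100 was reached by 169 members, or 18.7% (16.3 to 21.4%), by 10.8% (9.98 to 11.6%) of single events and by 12.2% of all events. A −log10 q of at least 5, as deposited by the authors, was reached by 64.6% of members (61.4 to 67.6%), by 44.9% of single events (43.6 to 46.2%) and by 48.1% of all events. The strongest event of the whole list, at 1315, was a single event, and the strongest member had 749.3. The 140 events of the runs left out had a median of 62.95 (53 to 80.3), above both. No test was made of these differences, since the events belong to 1 library.

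Median strength was highest in the closest pairs. Members whose nearest event was over 500 bp away had a median of 49 (45.2 to 55), which is nearer to the single events than the 53.9 (51.9 to 57.1) of members with an event within 500 bp. Among the 12 pairs up to 50 bp apart the stronger event had a median of 126.85 and the weaker 67.35. Between 50 and 100 bp these were 87.7 and 53.15, and between 100 and 200 bp 61 and 39.2. Wider classes lay above or below this, with 84.85 and 48.7 between 300 and 400 bp and 53.15 and 36.7 between 400 and 500 bp. Between 700 and 1000 bp the medians were 64 and 40.9. The medians were thus highest in the classes up to 100 bp, and the wider classes varied without an order. Both events were over 100 in 27 of the 413 pairs. Of these, 12 were among the 100 pairs at most 100 bp apart, and 15 lay between 100 and 500 bp. Of the 98 pairs further apart, 0 had both events over 100. That allows a share of up to about 3.06% (an approximate limit, not a Wilson interval). Only 15.2% of members over 500 bp from the nearest event, and 12.2% of all events, were over 100. Few such pairs would thus arise there in any case. Their number without a link to spacing was not computed, so the 0 is no result on spacing. At least 1 event was over 100 in 121 pairs, 29 of them over 500 bp apart.

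The stronger event of a pair was stronger than single events, and the weaker was not. The median was 70.6 (64.7 to 77) for the stronger event and 43.1 (40.6 to 45) for the weaker, and 221 of 413 weaker events (53.5%) lay below the median of the single events. The larger of 2 values exceeds a typical value whichever events are taken, so the same was computed for neighbouring events further apart. Neighbours 1000 to 5000 bp apart had medians of 62 and 39, and those over 20000 bp apart 59.45 and 37.1. Stronger and weaker events of close neighbours, at 71.8 and 43.2 over all 465 distances up to 1000 bp, were both above these. Counted as 1 locus, a pair had a median summed strength of 117 (111 to 125), with quartiles of 86.7 and 169.

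**Figure D2:**
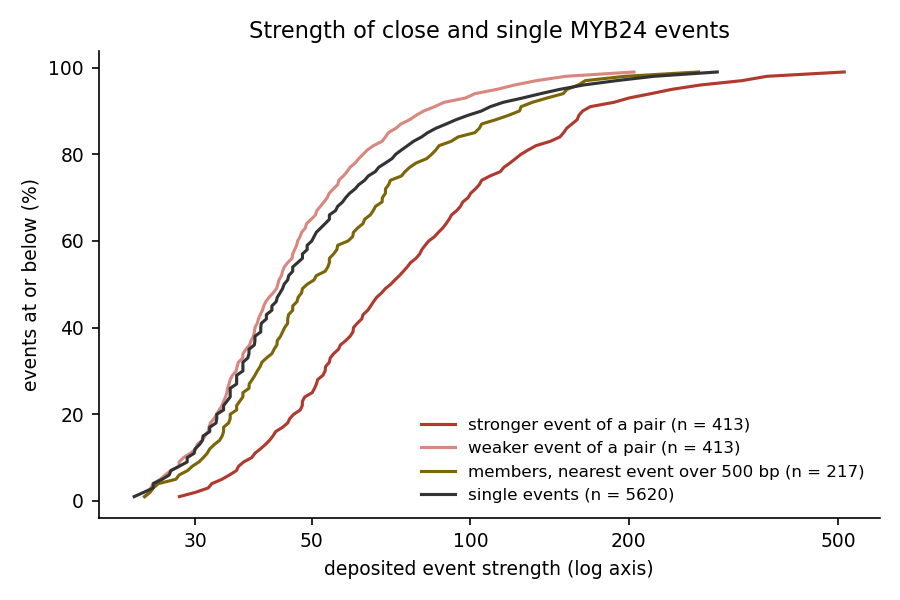
Cumulative share of events (y axis, percent) at or below a deposited strength (x axis, log scale), drawn from the 1st to the 99th percentile. The weaker events of pairs run close to the single events, with medians of 43.1 and 44.3, while the stronger events lie to the right, with a median of 70.6.

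At like strength, members also had the higher deposited −log10 q in the median. Between strengths of 50 and 75 the median −log10 q was 8.71 for 229 members and 6.88 for 1216 single events. Between 75 and 100 it was 15.14 against 11.85, and between 100 and 200 it was 27.55 against 23.04. Below 35 the medians were 2.845 and 2.755. The quartiles overlapped in each of these ranges, for example 6.31 to 10.94 for members and 5.35 to 8.83 for single events between 50 and 75.

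Within a pair, the events were in the median about as unequal as neighbours further apart on a contig. The stronger event had a median of 1.51 times the strength of the weaker, which is 0.60 on the log2 scale (0.52 to 0.65), with quartiles of 1.19 and 2.03 times. Neighbours 1000 to 5000 bp apart had a median log2 ratio of 0.58 (0.50 to 0.66), those 5000 to 20000 bp apart 0.62 (0.56 to 0.67) and those over 20000 bp apart 0.57 (0.54 to 0.60). The ratio also changed little with spacing, from 0.54 for pairs up to 50 bp apart to 0.59 between 700 and 1000 bp, with the highest value, 0.94, for the 23 pairs between 600 and 700 bp. In 62 pairs (15.0%) the strengths were within a factor of 1.1, in 107 (25.9%) they differed over 2-fold and in 20 (4.84%) over 4-fold. Over all neighbouring distances up to 1000 bp, 15.1% were within 1.1-fold and 5.16% over 4-fold. In the same wider classes, in order, 15.3%, 12.6% and 13.9% were within 1.1-fold. Differences over 4-fold were somewhat more frequent there, at 7.64%, 6.58% and 7.26%. The event at the lower coordinate was the stronger in 230 pairs and the weaker in 181, and 2 pairs were tied.

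The strengths of the 2 events did rise together. Across the 413 pairs the Spearman correlation was 0.34. Across all 465 neighbouring distances up to 1000 bp it was 0.33, against 0.06 for 445 neighbours 1000 to 5000 bp apart, 0.05 for 1095 between 5000 and 20000 bp and 0.13 for 4078 further apart. By spacing, pairs up to 500 bp apart had 0.39 (n = 315) and those beyond 0.17 (n = 98). These points share a library and its depth, so the correlations are given as a description.

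**Figure D3:**
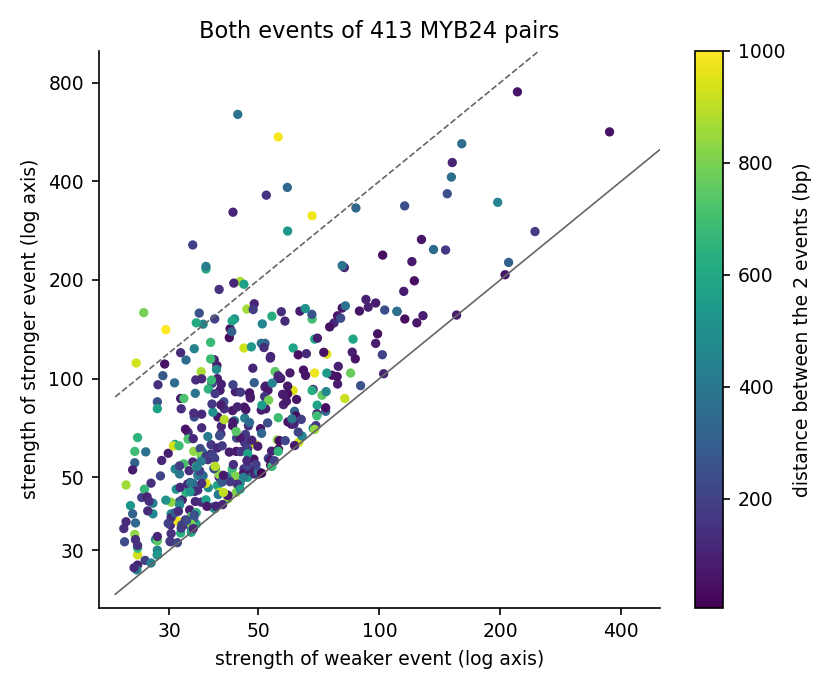
Deposited strength of the stronger event (y axis, log scale) against the weaker event (x axis, log scale) of each of 413 pairs, coloured by spacing in bp. The solid line marks equal strength and the dashed line a 4-fold difference, which 20 pairs exceed.

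Strengths in close pairs came in complementary fractions. Strength was deposited with 1 decimal, and it was not a whole number for 674 of 903 members, or 74.6% (71.7 to 77.4%), against 23.01% (21.9 to 24.1%) of single events and 31% of all events. Neither event was whole in 287 pairs, and in 251 of these (87.5%) the 2 strengths added up to a whole number exactly to the decimal given. For example, the events on Primary000091F at 1523372 and 1523552 had 280.9 and 244.1, which makes 525. Those on Primary000020F at 3572961 and 3573488 had 59.1 and 281.9, which makes 341. Among neighbours 1000 to 5000 bp apart with neither strength whole, 3 of 60 (5%) had a whole sum. Between 5000 and 20000 bp it was 12 of 71 (16.9%), and over 20000 bp 20 of 279 (7.17%).

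This feature ended near 530 bp. In 271 of 315 pairs up to 500 bp apart (86.0%) neither strength was whole, and 244 of the 271 had a whole sum. Between 500 and 600 bp neither was whole in 8 of 28 pairs, with a whole sum in 6, and between 600 and 700 bp in 1 of 23, with a whole sum in 0. The longest such pairs were 530 bp apart on Primary000014F (40.1 and 38.9), 527 bp on Primary000020F, 523 bp on Primary000214F (33.8 and 45.2) and 515 bp on Primary000129F (42.6 and 29.4), and beyond them there was 1, at 936 bp on Primary000333F. Members over 500 bp from the nearest event had a strength that was not whole in 30.9% (25.1 to 37.3%). Under 100 bp the sums were less often whole, in 63 of 76 pairs between 50 and 100 bp and 6 of 9 up to 50 bp, against 32 of 33 between 200 and 300 bp. The event caller GEM is known to let a read be shared between neighbouring events. What strength counts is not stated, and the part of such sharing in the differences of strength above was not tested. The median strength of members with a whole value was 7.0 above that of single events with a whole value. This comparison was chosen after seeing the data, and a whole value does not tell whether reads were shared.

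**Figure D4:**
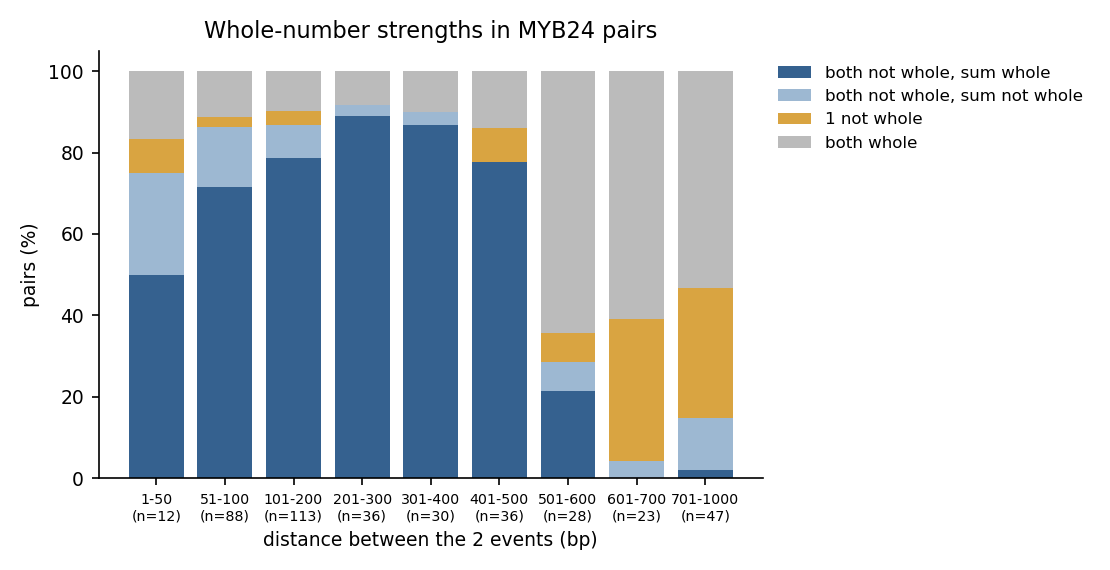
Share of pairs (y axis, percent) by whether the strengths are whole numbers, in 9 classes of spacing (x axis, bp, with the number of pairs). Pairs with 2 strengths that are not whole but have a whole sum make up 50% to 88.9% of each class up to 500 bp, and 1 of 70 pairs beyond 600 bp.

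The strongest pairs showed both unequal and balanced partners. The largest summed strength, 970, belonged to Primary000280F, with 749.3 at 299890 (interval 299791 to 299991) and 220.7 at 299951 (299852 to 300052), 61 bp apart. The next, 940, was on Primary000273F, with 565.7 at 2619 (2520 to 2720) and 374.3 at 2674 (2575 to 2775), 55 bp apart. Their −log10 q values were low for such strengths, 68.5 and 23.1 on Primary000280F and 38.7 and 5.29 on Primary000273F. On Primary000058F, by comparison, 520.6 at 2512182 (2512083 to 2512283) came with a −log10 q of 138 and 160.4 at 2512540 (2512441 to 2512641) with 26.8. The pair on Primary000028F at 2568631 (2568532 to 2568732) and 2568735 (2568636 to 2568836) had 151.9 and 456.1, with −log10 q of 40.6 and 127.

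A further 5 of the 10 pairs with the largest sums had both strengths over 50. On Primary000147F the event at 602619 had 546 and that at 603605 had 56. Primary000293F had 151.1 at 376579 and 411.9 at 376941. Primary000000F had 344.9 at 2444949 and 197.1 at 2445406, 457 bp apart, the widest spacing among pairs with both strengths over 100. Primary000091F held 2 of the 10, at 1523372 and 1523552 with 280.9 and 244.1, and at 1461317 and 1461564 with 147.6 and 366.4.

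The most unequal pair was on Primary000002F, where the event at 7233645 (7233546 to 7233746) had 639.6 and the one 376 bp before it, at 7233269, had 44.4, a ratio of 14.4. After it came Primary000147F with a ratio of 9.75. Primary000060F had 255.7 at 1025490 and 34.3 at 1025684, a ratio of 7.45. Primary000001F had 43.2 at 2460205 and 321.8 at 2460317, also 7.45. Primary000028F had 362.7 at 1152048 and 52.3 at 1152201, a ratio of 6.93. The weaker events of these 5 pairs, from 34.3 to 56, were thus within or close to the quartiles of the single events.

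The most equal pairs with both strengths at least 100 were of several spacings. On Primary000050F the events at 2079452 and 2079527 had 155.7 and 156.3, 75 bp apart. On Primary000026F those at 733934 and 733997 had 207.4 and 205.6, 63 bp apart. Primary000027F had 103.5 at 924315 and 102.5 at 924418, 103 bp apart. Primary000099F had 226.2 at 1958481 and 209.8 at 1958788, 307 bp apart. The fifth was the pair of Primary000091F at 1523372, with a ratio of 1.15.

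There were 25 groups of 3 or 4 events. The 23 triplets spanned 221 to 1752 bp, with a median of 975 bp, and had a median summed strength of 220.9. The strongest event was the first in 8, the middle in 6 and the last in 9, and in 0 of 23 were the 2 distances equal to within 2 bp. The strongest triplet was on Primary000028F, with 358.9 at 2574765, 543.3 at 2574933 and 303.8 at 2575289, which makes 1206. The next was on Primary000006F, with 182.7 at 3559062, 338.3 at 3559392 and 118 at 3560215. Primary000000F had 42.1 at 11916749, 197.2 at 11917419 and 180.8 at 11917481. Primary000025F had 288.7 at 1436374, 56.3 at 1436410 and 49 at 1437131. Primary000142F had 36 at 716245, 81.2 at 716985 and 227.8 at 717122. In 3 of these last 4 the 2 events within 500 bp of each other had a whole sum while the third, further off, was whole itself. Of 14 triplets with no whole strength, 4 had a whole sum over all 3 events. Over all triplets and quadruplets, parted at distances over 500 bp, 19 of 23 sets of events with no whole strength had a whole sum. The quadruplet on Primary000001F, from 4681767 on, had distances of 442, 442 and 111 bp and strengths of 92.9, 56.1, 43.4 and 40.6. The one on Primary000042F, from 2068865 on, had distances of 71, 641 and 81 bp and strengths of 41.8, 64.2, 81.8 and 85.1, so it consisted of 2 close pairs.

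Members were spread over many contigs. Primary000000F held 36 of them among 257 events (14.0%), Primary000002F 34 among 232 (14.7%) and Primary000001F 30 among 155 (19.4%), 3 contigs picked for their number of members. Of the 159 contigs with members, 73 had 1 group, 29 had 2 and 57 had 3 or more, up to 17. Outside the pair, the next event lay a median of 18719 bp away, and within 5000 bp for 80 of 413 pairs.

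A minority of pairs had 2 counterparts in the list with haplotigs. A counterpart was an event of the list with haplotigs on the same primary contig within 100 bp. Of the members, 444 or 49.2% (45.9 to 52.4%) had one, against 42.5% (41.2 to 43.8%) of single events and 44% of all events. Both events had a counterpart in 159 pairs (38.5%, 33.9 to 43.3%), but in 40 of these the 2 events shared the same counterpart. That left 119 pairs (28.8%, 24.7 to 33.4%) with 2 different counterparts. In 94 pairs 1 event had a counterpart and in 160 neither had. The events of a close pair are not independent in this count, since a counterpart near one is often within 100 bp of the other.

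**Figure D5:**
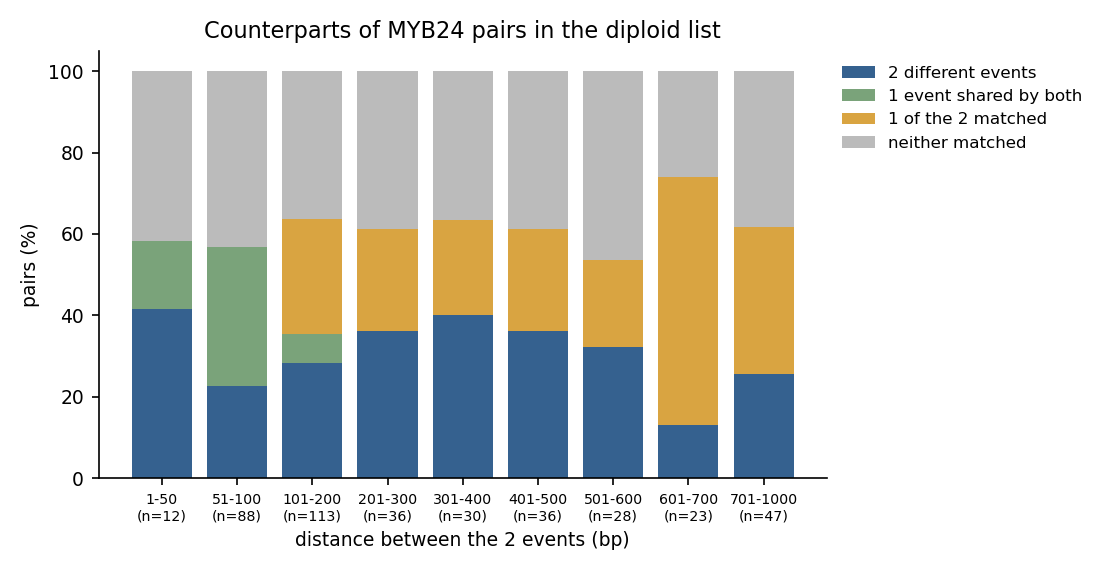
Share of pairs (y axis, percent) by their counterparts in the list with haplotigs, in 9 classes of spacing (x axis, bp, with the number of pairs). A single event shared by both occurs up to 146 bp, and pairs with 2 different counterparts make up between 13.0% and 41.7% of a class.

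The 119 pairs with 2 different counterparts had a median spacing of 231 bp and a median summed strength of 119.6. These medians were 188.5 bp and 107.5 for pairs with neither event matched and 384 bp and 115.05 for pairs with 1 event matched. Pairs with a shared counterpart had 82 bp and 152.5. The median of the smaller −log10 q of a pair was 5.47 with 2 different counterparts and 3.92 with none. Of the 119, the spacing was identical in 63 and within 2 bp in 85, and it differed by more than 10 bp in 30, where a counterpart can be another site. The stronger event was the same one in 103 of 119 (86.6%), and in 34 of the 36 pairs with a ratio over 2. The summed strength in the list with haplotigs had a median log2 ratio to that of the other list of -0.017, with quartiles of -0.48 and 0. It was within 10% in 73 pairs and under 0.6 of it in 25. Where only 1 event had a counterpart, it was the stronger one in 70 of 94 (74.5%).

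Individual pairs covered this range. The pair of Primary000280F had 788.7 and 168.3 in the list with haplotigs, beside 749.3 and 220.7, and that of Primary000273F had 547 and 387 beside 565.7 and 374.3. The equal pairs of Primary000026F and Primary000027F were found at the same spacing, with 191.6 and 221.4 and with 104.2 and 101.8. On Primary000099F the pair was also found at the same spacing, but with 16.8 and 54 in place of 226.2 and 209.8. On Primary000060F the pair with a ratio of 7.45 had 25.9 and 25.3. The pairs of Primary000293F and both of Primary000091F among the 10 largest had no counterpart for either event.

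The 40 pairs with a shared counterpart were short, with a median spacing of 82 bp and at most 146 bp. The shared event lay within 2 bp of an event of the pair in 22 cases and between the 2 in 17. Its strength had a median of 0.41 times the summed strength of the pair, with quartiles of 0.23 and 0.96. On Primary000021F, for example, the 37-bp pair with 89.9 and 59.1 stood beside an event with 53 at 3441073.

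A few pairs had events of the same spacing on a haplotig named after their contig. Of 231 pairs on contigs whose haplotigs had neighbouring events up to 1000 bp apart, 12 matched such a distance to within 2 bp. They used 11 haplotig pairs, 1 of which matched 2 pairs of Primary000005F and can be the copy of at most 1 of them. Whether a haplotig stretch is the alternative version of the same locus was not tested. How many matches the spacings alone would give was not computed. The pair of Primary000022F at 2618536 and 2618604 had 120.5 and 227.5, 68 bp apart, and Haplotig000022F_016 had 76.2 at 249177 and 290.8 at 249245, also 68 bp apart. In the same list the primary contig had 1 event there, with 164. The pair of Primary000037F at 1068766, with 170.1 and 97.9, had 76 bp, as had Haplotig000037F_023 from 451501, with 27.4 and 27.6. Primary000005F from 1285266 had 174.4 and 92.6 at 98 bp, and Haplotig000005F_020 from 156909 had 36.8 and 20.2 at 96 bp. On Primary000126F the pair from 879978 had 220 and 37 at 416 bp, and Haplotig000126F_004 from 310945 had 113.6 and 37.4 at 417 bp. The strongest primary pair with such a match, on Primary000001F from 2460205, had 43.2 and 321.8 at 112 bp. Haplotig000001F_068 from 723370 had 69.5 and 54.4 at 110 bp, in the reverse order of strength. The order of strength was the same in 8 of the 12, with the haplotig pair that matched 2 pairs of Primary000005F counted both times. So few pairs cannot tell this from an order that varies freely.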

How the data were processed

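Per the submitters' processing notes, reads of the 1 MYB24 library went through Bowtie2 2.3.2 (an aligner), cutadapt 3.1 and Trim Galore 0.6.6 (trimmers). GEM is named in the deposited lists as the caller of events. Settings and the use of the control were not given in the sources used here beyond the design text, which sets MYB24 against the HALO library. The authors deposited 1 list on primary contigs and 1 with haplotigs (6102 events), without headers, read in narrowPeak order: a capped score (not used further), the signal called strength here, and −log10 p and −log10 q. The smallest deposited −log10 q was 2. What strength counts is not given, so the depth behind an event is unknown.

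Positions are those in the event names, with intervals given 1-based. Events were linked by distance, and counterparts in the other list were the nearest event within 100 bp on the same contig. Rank intervals of medians come from order statistics at 95%. Intervals on shares are Wilson intervals, apart from the approximate limit for pairs over 500 bp apart with both events over 100. No p-value was computed, because events of 1 library are not replicates. The members and rules were chosen with earlier results of these data known. Named regions were the 10 pairs with the largest summed strength, the 5 shortest, the 5 most unequal and the 5 most equal with both strengths at least 100. They also included the 5 strongest triplets or quadruplets, the 3 on each side of the limit and the 3 most frequent spacings. The last were the 5 strongest pairs matched in spacing by a haplotig pair. Other regions were singled out after their values were seen. The finding of pairs was checked on simulated data with planted pairs and long runs, set far from other events. These data held no triplets, quadruplets or runs of 4 events, so such cases were not checked. The software was matplotlib 3.10.9, scipy 1.17.1, numpy 2.4.6 and pandas 2.3.3 under Python 3.11.15.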

Additional observations from a re-analysis of the deposited data

How the results depend on the processing

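Of 39 alternative values, 20 stayed within the interval of the reported value or within 1.5 times the reported count. Members and pairs numbered 434 and 202 at a −log10 q of at least 5 and 199 and 87 at 10. The median spacing followed the limit by construction, at 136.5 bp up to 500 bp and 338 bp up to 2000 bp, and was 118 bp at a −log10 q of at least 5. Members exceeded single events in median strength by 8.8 as reported and by 6.2 at a −log10 q of at least 5. On the primary contigs of the list with haplotigs they did so by 4.75. Chosen after seeing the data, this difference was 4.7 for members over 500 bp from the nearest event, 26.3 for the stronger event of a pair, -1.2 for the weaker and 72.7 for the sum. The excess of strengths that were not whole, 51.6 percentage points, was 7.87 for members over 500 bp from the nearest event. Pairs with both events matched were 24.2% within 20 bp, 52.5% within 500 bp, 46.7% for intervals sharing at least 1 bp, 52.0% at a −log10 q of at least 5 and 28.8% with 2 different counterparts, chosen after seeing the data. The cause of these shifts was not tested beyond the settings themselves. Sequence alternatives were not run, since no genome of this build was used. No paired analysis was possible because MYB24 and its control have a lone library each.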
